A study of Mus musculus with 2 samples.

Results

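The regions described are the stretches of the mouse genome at which methylated DNA from the ventricular and subventricular zone (V/SVZ) of the embryonic cerebral cortex was enriched over a control. Among the listed regions they were chosen by position alone. Every listed enriched region (peak) of the V/SVZ over control on chromosomes 1 to 19 was taken. Each was counted once however many transcripts it is annotated to. There were 50667 such peaks, of 52283 V/SVZ peaks on all chromosomes and of 105687 peaks in the control comparisons of both dissected tissues together. Being listed rests on the measured enrichment over the control, and beyond that no measured value entered the choice.

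The tissue came from ICR mouse embryos at embryonic day 16, an outbred strain with no stated genotype, transgene or treatment. The V/SVZ, which lines the ventricle and is rich in neuronal progenitors, and the cortical plate (CP), which is rich in differentiating neurons, were separated by manual dissection, so each holds a mixture of cell types. There was 1 library per tissue. The sources used here do not say whether embryos were pooled or what the control was. With 1 library there is no replicate error for any value, and no test between tissues was made. The 95% Wilson intervals given cover counting error only.

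In mammals DNA methylation sits mostly on cytosines that precede a guanine (CpG). Much of the genome is methylated, including the bodies of transcribed genes, while CpG-rich promoters are usually free of it. Known exceptions are promoters of germline genes, which are methylated and silent in somatic tissues, and the control regions of imprinted genes, which carry methylation on the copy from a single parent. Proteins with a methyl-CpG binding domain hold methylated fragments, so that a fragment with several methylated CpGs is recovered better than one with few, and a stretch with no CpG is not recovered whatever its state. A peak therefore reports methylation and CpG density together, and its tags (the reads of the library inside it) are not a percentage of methylated copies.

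The promoters of 8 genes are shown so that marked and unmarked promoter sequence can be read side by side. The 250 bases before each annotated start are given 5′ to 3′ in the direction of the gene, from RefSeq on the assembly GRCm38.p6, with each CG dinucleotide in capitals. The first 4 belong to germline genes with the most tags over their 5′ end (Dazl, Stra8, Mael and Piwil1), the next 2 to imprinted genes with such a peak (Zrsr1 and Plagl1), and the last 2 to the Hox genes with the most CpGs, which have no listed peak within 10 kb (Hoxa13 and Hoxd13). All come from genes with a single RefSeq promoter.
Dazl: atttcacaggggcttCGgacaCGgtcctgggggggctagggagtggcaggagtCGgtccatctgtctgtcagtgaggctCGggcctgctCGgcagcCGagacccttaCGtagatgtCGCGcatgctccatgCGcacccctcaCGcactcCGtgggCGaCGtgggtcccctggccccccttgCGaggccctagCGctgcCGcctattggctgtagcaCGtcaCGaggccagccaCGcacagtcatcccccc
Stra8: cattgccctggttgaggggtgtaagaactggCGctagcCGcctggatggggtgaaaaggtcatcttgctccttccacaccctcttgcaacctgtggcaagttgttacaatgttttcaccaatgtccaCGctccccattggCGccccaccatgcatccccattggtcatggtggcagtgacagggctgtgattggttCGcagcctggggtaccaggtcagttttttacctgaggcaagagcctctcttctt
Mael: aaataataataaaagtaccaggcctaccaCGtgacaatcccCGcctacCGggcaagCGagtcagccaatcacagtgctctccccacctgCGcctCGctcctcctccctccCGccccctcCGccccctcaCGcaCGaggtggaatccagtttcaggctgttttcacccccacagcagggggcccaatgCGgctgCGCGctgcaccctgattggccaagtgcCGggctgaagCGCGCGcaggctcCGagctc
Piwil1: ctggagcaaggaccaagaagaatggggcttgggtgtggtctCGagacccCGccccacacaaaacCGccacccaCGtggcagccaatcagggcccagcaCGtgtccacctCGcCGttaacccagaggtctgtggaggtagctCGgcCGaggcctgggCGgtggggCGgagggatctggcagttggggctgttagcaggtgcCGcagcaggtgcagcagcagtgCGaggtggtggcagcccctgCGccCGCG
Zrsr1: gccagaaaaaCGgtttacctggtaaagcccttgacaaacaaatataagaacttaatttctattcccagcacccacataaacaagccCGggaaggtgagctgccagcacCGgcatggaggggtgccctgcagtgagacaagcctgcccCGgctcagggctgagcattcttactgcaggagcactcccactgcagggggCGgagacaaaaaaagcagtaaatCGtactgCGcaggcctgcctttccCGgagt
Plagl1: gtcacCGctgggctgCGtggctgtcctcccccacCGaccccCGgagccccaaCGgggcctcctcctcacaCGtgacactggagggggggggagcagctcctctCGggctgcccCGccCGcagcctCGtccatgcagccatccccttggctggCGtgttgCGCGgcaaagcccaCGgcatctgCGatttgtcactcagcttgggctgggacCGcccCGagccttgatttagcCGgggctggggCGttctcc
Hoxa13: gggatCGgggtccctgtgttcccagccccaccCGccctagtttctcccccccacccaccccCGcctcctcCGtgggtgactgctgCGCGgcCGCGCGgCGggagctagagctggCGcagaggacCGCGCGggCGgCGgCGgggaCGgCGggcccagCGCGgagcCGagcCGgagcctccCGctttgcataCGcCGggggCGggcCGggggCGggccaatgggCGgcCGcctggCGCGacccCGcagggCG
Hoxd13: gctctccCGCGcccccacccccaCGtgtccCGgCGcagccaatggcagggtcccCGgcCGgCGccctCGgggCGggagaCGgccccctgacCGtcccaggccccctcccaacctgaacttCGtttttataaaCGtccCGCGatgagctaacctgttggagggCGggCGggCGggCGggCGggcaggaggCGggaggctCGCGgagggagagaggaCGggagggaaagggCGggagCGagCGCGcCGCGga

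These stretches lie at chr17:50293621-50293870 on the minus strand for Dazl, at chr6:34920698-34920947 on the plus strand for Stra8, at chr1:166238745-166238994 on the minus strand for Mael and at chr5:128735996-128736245 on the plus strand for Piwil1. Those of the imprinted genes lie at chr11:22971755-22972004 for Zrsr1 and chr10:13090582-13090831 for Plagl1, both on the plus strand. The Hox stretches lie at chr6:52260881-52261130 on the minus strand for Hoxa13 and chr2:74667975-74668224 on the plus strand for Hoxd13. The numbers of CG were 20 in Dazl, 5 in Stra8, 18 in Mael, 16 in Piwil1, 8 in Zrsr1 and 19 in Plagl1, against 35 in Hoxa13 and 31 in Hoxd13. The higher numbers of the Hox pair follow from how it was picked: in the 300 bases around the start the median over Hox promoters was 14.5 CpGs (n = 20), and over germline promoters with a peak it was 16 (n = 24). All peak coordinates below are on mm9, the build of the deposited files, and cannot be set against the GRCm38.p6 positions above.

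Most V/SVZ peaks were small. The 50667 peaks held 974963 tags in 21.31 Mb of sequence. The median was 11 tags (quartiles 8 and 20) over 354 bp (quartiles 294 and 491), with a range of 6 to 1468 tags and a longest peak of 3305 bp. Peaks with under 10 tags made up 40.6% of all. The 895 peaks with at least 100 tags were 1.77% of peaks and held 16.7% of tags. The list is not complete at its weak end: the table is sorted by fold enrichment over the control and stops at line 65535, at a fold of 11.48, so that 6299 of 58582 numbered peaks are not listed. The corresponding CP list stops at a fold of 14.71. A gene or promoter called free of peaks below is therefore free of listed peaks only.

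Peaks lay inside genes or far from them, and seldom at promoters. Of the 50667 peaks, 22579 lay inside a RefSeq transcript (44.6%, interval 44.1 to 45.0), and 22670 had no transcript within 10 kb (44.7%, interval 44.3 to 45.2). A promoter peak was defined as one over a transcript's 5′ end, over a whole transcript, or wholly upstream within 1 kb. There were 544 of these (1.07%, interval 0.988 to 1.17): 339 over a 5′ end, 6 over a whole transcript and 199 upstream only. A further 166 peaks covered a 3′ end, 2389 lay farther upstream and 2319 lay downstream. The deposited annotation does not separate exons from introns, and it gives a distance of 0 to all peaks inside a transcript, so a peak in a first exon that stops short of the start counts as inside.

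The few promoter peaks were larger than peaks inside genes or far from them. Their median was 17 tags over 445.5 bp, against 12 tags over 358 bp inside genes and 10 tags over 349 bp far from genes. Per length the difference was smaller, at a median of 3.64 tags per 100 bp in promoter peaks, 3.29 inside genes and 2.92 far from genes. Peaks over a 3′ end had a median of 20 tags over 557.5 bp, or 3.88 per 100 bp. A longer peak is more likely to cover a given transcript end, so these classes favour large peaks by definition. Peaks over a 5′ end had a median of 22 tags, against 10 for peaks wholly upstream within 1 kb of a transcript. How much of the size difference follows from the definition was not tested.

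Peaks wholly upstream of a transcript were fewest in the first kb. The first kb before a transcript held 205 peaks and the second 393, whereas each kb from the third to the tenth held between 460 and 538. No such gap appeared beyond the 3′ end, where the first kb held 491 peaks, the second 471 and the later ones 518 to 603. The 339 peaks over a 5′ end also reach into the first upstream kb but are not counted at that transcript. The dip is thus one of wholly upstream peaks only. Each peak was placed by its nearest transcript on that side, even where it lay inside another transcript.

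**Figure D1:**
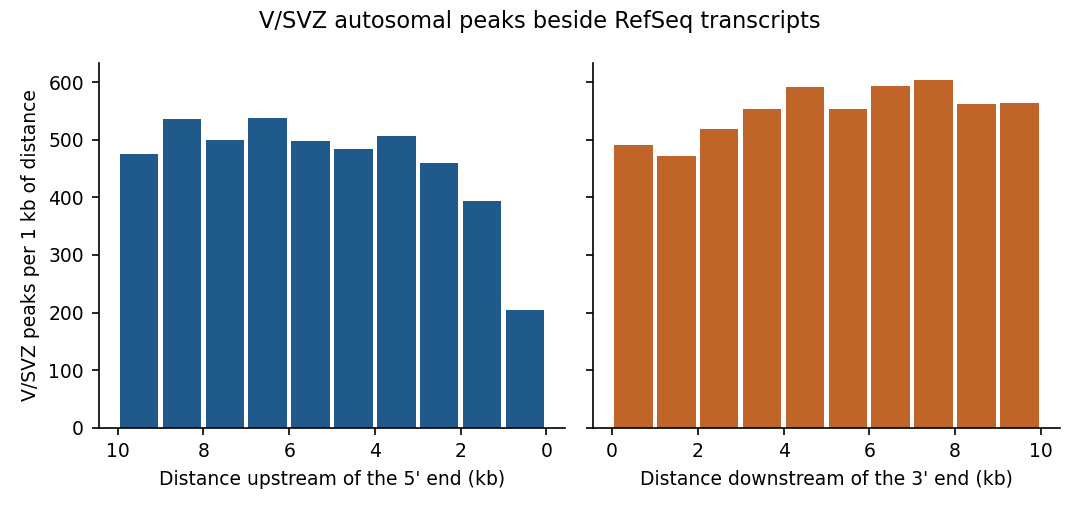
Number of V/SVZ peaks on chromosomes 1 to 19 by distance, in bins of 1 kb to 10 kb, upstream of a 5′ end and downstream of a 3′ end. On each side the nearest transcript was used. A peak inside another transcript was still counted, and a peak could enter both sides. The first upstream kb holds 205 peaks against 460 or more from the third onward, and the downstream side shows no such dip. The 339 peaks over a 5′ end are not counted at that transcript.

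Larger peaks were more often genic. The share inside genes was 39.6% among peaks of 6 or 7 tags (interval 38.8 to 40.5) and 58.8% among those with at least 100 (interval 55.5 to 62.0), rising at every step between. The promoter share rose likewise from 0.647% (interval 0.521 to 0.803) to 3.35% (interval 2.36 to 4.75), where large peaks are favoured by the promoter definition. In contrast, the share inside genes fell with fold enrichment, from 62.4% of peaks below a fold of 14.71 to 28.4% of the 3008 peaks at the largest fold, 50. Peaks at fold 50 had a median of 13 tags, so the highest folds did not belong to the largest peaks. Since the unlisted peaks all have folds below 11.48, the share inside genes in the full numbered set cannot be read from the list.

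Of the V/SVZ peaks, 32466 overlapped a CP peak by at least 1 bp (64.1%, interval 63.7 to 64.5). The overlap was 41.6% for peaks of 6 or 7 tags, reached 84.1% at 50 to 99 tags and was 76.5% at 100 or more. Peaks over a CP peak had a median of 14 tags and the others of 8. Of peaks below the fold at which the CP list stops, 31.6% overlapped a CP peak, against 83.8% at fold 50. Peaks of few tags and of low fold were thus the least often shared. Where peaks overlapped, the CP library had a median of 1.82 times the tags (quartiles 1.25 and 2.61), and 4125 overlapping peaks (12.7%) had more tags in the V/SVZ. Tags are not scaled to library depth, which is not given, so at most departures from this median can be compared. The median ratio also varied with the V/SVZ peak itself. It was 2.14 at 6 or 7 tags and 1.64 at 100 or more, and 2.36 below a fold of 14.71 and 1.58 at fold 50. Ratios of classes that differ in tags or fold, here and below, are therefore not directly comparable. For promoter peaks the overlap was 73.0% (interval 69.1 to 76.5) and the median ratio 2.21; for peaks inside genes they were 61.5% (interval 60.9 to 62.1) and 1.75.

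The make-up of the CP list was close to that of the V/SVZ list. Of 50968 autosomal CP peaks, 577 were promoter peaks (1.13%), 20601 lay inside genes (40.4%) and 24727 had no gene within 10 kb (48.5%). Because the lists stop at different folds, and the share inside genes falls with fold, these differences cannot be told apart from where each list stops.

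**Figure D2:**
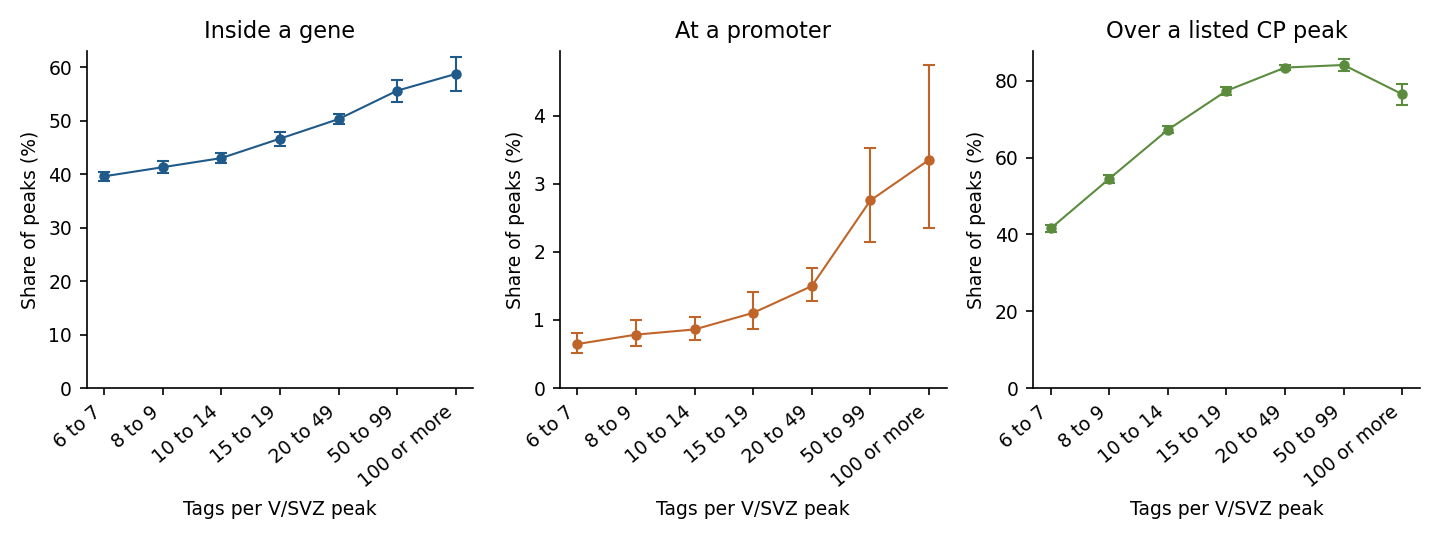
Shares of V/SVZ peaks by the number of tags in the peak, with 95% Wilson intervals for counting error. The share inside genes and the promoter share rise with tags, and the share over a CP peak climbs from 41.6% to 84.1% and is 76.5% in the class of 100 tags or more.

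The largest single peaks lay in and near genes of unrelated function. The peak with the most tags, 1468 over 1167 bp (126 tags per 100 bp), lay at chr7:4706729-4707895 and was classed as inside a gene. It lay inside or within 10 kb of Suv420h2, Cox6b2 and Fam71e2. Suv420h2 encodes a histone H4 lysine methyltransferase and Cox6b2 a testis subunit of cytochrome c oxidase. The CP peak there had 1974 tags. A peak of 1201 tags over 1465 bp lay inside Mxi1, a MAX-binding repressor of MYC targets, at chr19:53423169-53424633; no CP peak is listed there, and its fold was 15.22. Vapb, an endoplasmic reticulum membrane protein, held a peak of 1165 tags at chr2:173595160-173596153, against 1419 in the CP. At chr9:2999903-3003089 a peak of 1104 tags had no gene within 10 kb and no listed CP peak, and its 3187 bp gave it a lower density of 34.6 tags per 100 bp. The remaining 8 of the 12 peaks with the most tags had 703 to 960. They lay downstream of Shq1 (960), over the 5′ end of Sfi1 (815), at chr5:133971152-133972046 with no gene near (781), upstream of Zdhhc2 (756) and of Kif3c (755), and inside Tex2 (751), Snd1 (714) and Zbtb7c (703). In all 8 a CP peak was listed, with a ratio between 0.856 and 2.22. The sources used here do not say how reads that match several places were handled, so peaks at repeated sequence, which these may include, are uncertain.

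Length picked out other genes. The longest peak, 3305 bp with 248 tags, lay inside Zfp423, a zinc finger transcription factor needed for cerebellar development, at chr8:90304031-90307335. Next came the gene-free chromosome 9 region, a peak of 3101 bp inside or within 10 kb of Tac2 (tachykinin 2), Zbtb39 and Gpr182, and 2893 bp inside Tshz3, a teashirt zinc finger factor. A peak of 2717 bp near Cirbp and 1600002K03Rik, 2486 bp inside Rreb1, 2465 bp over Gnas, 2436 bp inside Pcnxl3, 2397 bp inside Celsr1, a planar polarity cadherin, 2362 bp inside Lrp1, a lipoprotein receptor, and 2349 bp inside Gli2, a transcription factor of Hedgehog signalling, also stood among the 12 longest, with 1 of 2597 bp on chromosome 7 that had no gene within 10 kb. Long peaks were thinner, with 4.15 to 34.6 tags per 100 bp, than the 12 with the most tags, with 34.6 to 126. Of the 12 longest, 10 overlapped no listed CP peak, and 9 of those 10 had a fold below that at which the CP list stops. The part of these folds in the missing overlaps, here and for the genes below, was not tested.

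Peaks were spread over many genes. A gene was counted when a peak lay inside it or within 10 kb. On this count 11515 genes had a peak, with a median of 2 each, and 27997 peaks (55.3%) were assigned to a gene, 5013 of them to several genes. There were 3588 genes with 1 peak, 2881 with 2 and 1982 with 3. At the other end, 354 genes (3.07%) had at least 10 peaks and together held 4775 (9.42% of all), and 33 had at least 20. Among 20044 autosomal protein-coding RefSeq genes the share with a V/SVZ peak was 56.3% and the share with a promoter peak 2.57%. The same shares for CP peaks were 57.8% and 2.74%.

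Genes with many peaks had them in their bodies and shared them less with the CP. For genes with a single peak, 63.5% of the peaks lay inside a gene, 4.96% were promoter peaks and 71.1% overlapped a CP peak (interval 69.5 to 72.7). In genes with at least 20 the corresponding shares were 96.5%, 0.361% and 52.9% (interval 49.5 to 56.3). The median tags per peak were alike, at 12 and 11, while the median fold was 32.3 in the first class and 22.8 in the last. Gene lengths were not used here, so peak counts per gene are not per length.

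Camta1, which encodes a calmodulin-binding transcription activator found in neurons, held the most peaks, 52 with 783 tags between chr4:150436342 and 151240302, a span of 804 kb. Its peaks were of ordinary size, with a median of 12 tags and a largest of 49, and 51 of the 52 lay in the gene body. Of all 52 peaks, 24 overlapped a CP peak, and the CP list gives the gene 39. Next, Cdh23, a cadherin of sensory hair bundles, had 32 peaks and Cdh13, a GPI-anchored cadherin, had 31, with 19 and 17 over a CP peak. Ksr2, a scaffold of the RAS to MAP kinase cascade, had 30 peaks in 317 kb. Rbfox3, the splicing factor known as NeuN (listed as D11Bwg0517e), also had 30, of which 14 overlapped a CP peak. Agap1, an ARF GTPase-activating protein, and Slc39a11, a zinc transporter, had 29 each.

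Among the next genes, Cacna1d, an L-type calcium channel pore subunit, and Gabbr2, a subunit of the metabotropic GABA receptor, had 28 peaks each, with medians of 8.5 tags. St6galnac3, a sialyltransferase, Trio, a guanine nucleotide exchange factor of axon guidance, and Nav2, a neuron navigator, had 27. St6galnac3 and Trio held larger single peaks, of 140 and 103 tags. Dym, a Golgi protein, had 26 peaks, of which 21 overlapped a CP peak, the highest share of these 15 genes. Sdk1, a synaptic adhesion molecule, had 25 peaks over 949.8 kb, a median of 8 tags and a largest of 235. Wdfy3, an autophagy scaffold, had 24. None of these 15 genes had a promoter peak.

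**Figure D3:**
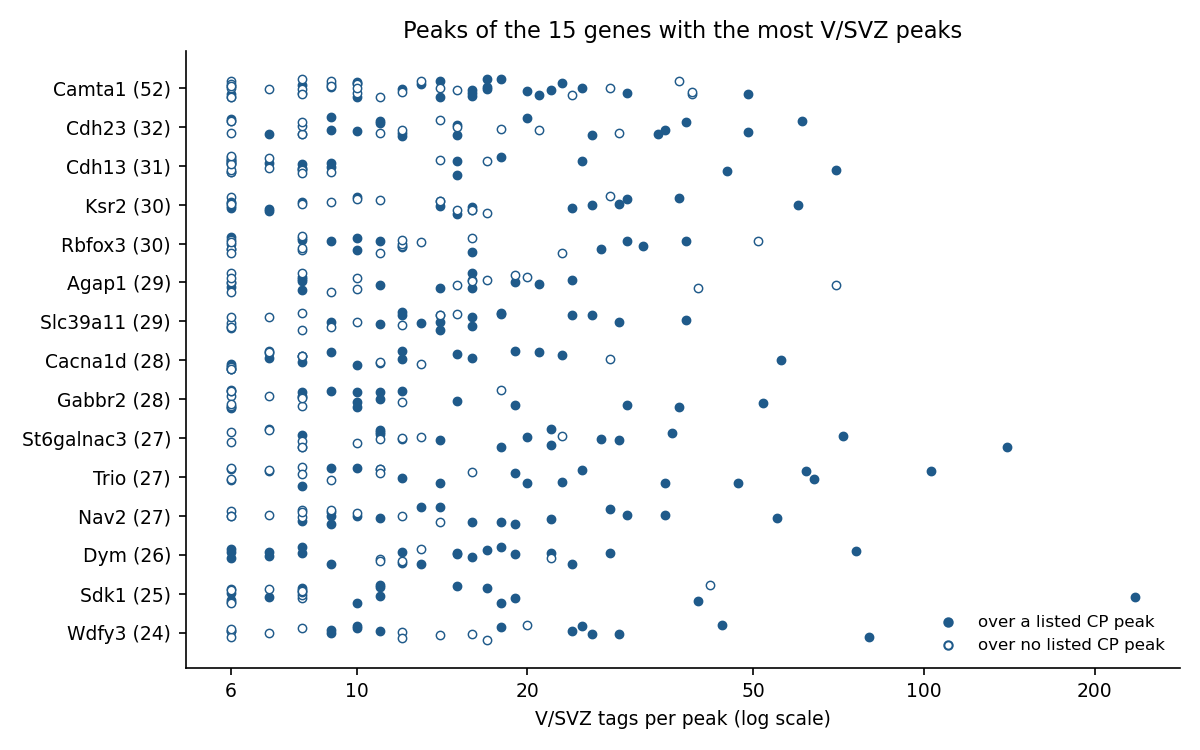
Number of V/SVZ peaks in or within 10 kb of the 15 genes with the most, and the tags of each of those peaks. Camta1 stands apart with 52 peaks, none above 49 tags, while Sdk1, St6galnac3 and Trio each hold a peak above 100 tags.

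Along the chromosomes the peaks were clustered in part. Of 2410 windows of 1 Mb with a peak, the median held 15 peaks (quartiles 9 and 28), and the 241 densest held 28.7% of all peaks. The densest by listed peaks, chromosome 4 from 140 to 141 Mb, held 96 peaks with 2211 tags. It contains Arhgef10l, a guanine nucleotide exchange factor with 19 peaks, and the peptidylarginine deiminase cluster. In that cluster Padi1 had 7 peaks, Padi2 had 6 and Padi3, Padi4 and Padi6 had 5 each. On chromosome 8 the window from 124 to 125 Mb held 92 peaks, with 10 each at Banp and Jph3 and 9 at Zfpm1, a GATA cofactor. The window from 172 to 173 Mb of chromosome 2 held 87, with 9 at Bmp7, a secreted growth factor, and 5 each at Ctcfl, a germline relative of CTCF, and Spo11, the enzyme that makes meiotic DNA breaks. The window from 122 to 123 Mb of chromosome 8 held 86 peaks, 8 of them at Crispld2. At 52 to 53 Mb of chromosome 7, 85 peaks fell among 59 genes with 3491 tags, the most of the 10 densest windows, and no gene there had more than the 6 of Tsks. Between 44 and 55 peaks in these 5 windows overlapped a CP peak. By peak numbers, listed or not, the 5 windows spanned 141, 129, 104, 113 and 132 peaks in the order given. The window from 115 to 116 Mb of chromosome 5, with 83 listed peaks, spanned 116. The ranking of windows thus depends on where the list stops.

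Peaks also stood in short runs. Successive peaks lay a median of 18.83 kb apart (quartiles 7.75 and 51.6), and 26.8% of peaks lay within 5 kb of a neighbour. The longest runs held 6 peaks. The first covered 22.0 kb of Zfhx3, a zinc finger homeobox factor, at chr8:111405727-111427699, with 9 to 20 tags per peak and 1 peak over a CP peak. The second covered 18.1 kb of Umodl1, a uromodulin-like membrane protein, at chr17:31090948-31109029, with 8 to 12 tags per peak and 3 over a CP peak. Among 13 runs of 5 peaks, that in Pcnt, the centrosome protein pericentrin, had the most tags, 224, and the next lay at Hps1, Pyroxd2 and Hpse2 and at BC017647 and Nek8. By chromosome, peak density ran from 14.8 per Mb on chromosome 14 to 27.7 on chromosome 11. Chromosome 11 also had the highest share of peaks inside genes, 55.5%, and chromosome 3 the lowest, 35.8%. The share of numbered peaks not listed varied from 5.41% to 14.9% between chromosomes.

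Promoter peaks marked 522 genes. The 15 with the most tags mixed multicopy, imprinted and germline genes with others. The largest covered the 5′ end of Sfi1, a centrosomal protein, with 815 tags at chr11:3092711-3093855, against 1808 in the CP. Dux, a double-homeobox gene of the early embryo present in many copies, had 356 tags and Vmn2r29, a vomeronasal receptor, 257. Such genes have near-identical copies in the genome, and their values are uncertain for that reason. Next were the imprinted Gnas (255) and, after 1600002K03Rik (220), the imprinted Zrsr1 (197). Hsf5, a heat shock factor of the testis, had 183 tags, against 620 in the CP, Zfp516 had 180 and the germline gene Dazl 177. Acsm3 (158), the potassium channel subunit Kcng1 (154), Trim52 (151), 9130017N09Rik (150), Tiam2 (133), which encodes a RAC exchange factor, and Gm16379 (131) completed the 15. Of these peaks 10 overlapped a CP peak and 5 did not, and 4 of the 5 had a fold below that at which the CP list stops.

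Germline genes were the group most often marked at the promoter among the 22 lists examined. Of 55 germline genes measured, 44 had a peak (80%, against 56.3% of all genes). A promoter peak was present in 31 (56.4%, interval 43.3 to 68.6), against 2.57% of all genes. All 31 lay over the 5′ end. They were 31 of the 544 promoter peaks, 15 of the 91 with at least 50 tags and 6 of the 30 with at least 100. In the CP list 33 of the 55 had one, and 30 of the 31 V/SVZ peaks overlapped a CP peak, with a median ratio of 2.94, against 2.21 for all promoter peaks. The list was chosen with earlier results of these data known, and the counts are a description.

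The members are given by role, grouped after their values were seen. Dazl had the most tags of the germline promoters. This gene, which encodes an RNA-binding protein needed for germ cell development, had 177 tags over 887 bp at chr17:50432428-50433314, or 19.95 per 100 bp, against 529 tags in the CP. Stra8, which starts meiosis in response to retinoic acid, had 115 tags, against 276 in the CP, at chr6:34870818-34872552. Mael, which acts in transposon silencing, had the same 115 and 276 tags in a separate peak at chr1:168168271-168169240. The oocyte transcription factor Figla had 86 and 165 tags, and Sohlh2, a helix-loop-helix factor of early germ cells, had 73 and 219. At the weak end, Nobox, an oocyte homeobox factor, had 8 tags in the V/SVZ and 51 in the CP.

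Members that act in the piRNA pathway, which silences transposons in the germline, ranged from no listed peak to large promoter peaks. Piwil1, a PIWI protein that binds piRNAs, had 111 tags at chr5:129241473-129242372, against 238 in the CP, and Mov10l1, an RNA helicase, had 62 against 250. Fkbp6 had 107 against 146. The tudor-domain genes Tdrd1 and Tdrd9 had 44 and 22, against 236 and 95, and the helicase gene Ddx4 had 33 against 136. Piwil2 had 9 tags against 59. Piwil4 had 8 against 22 over its 5′ end, but its largest peak, 5818 bp upstream at chr9:14550995-14551501, had 361 tags against 333 and was the largest of the germline list. Tdrd5 and Tdrd7 had peaks inside only, of at most 7 and 25 tags, and Tdrd6 and Asz1 had no listed peak. The V/SVZ value was the lower in each pair of promoter peaks, as it was for most overlapping peaks at these library depths.

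Members that act in chromosome pairing and recombination were marked in part. Sycp1 and Sycp2, components of the synaptonemal complex, had 107 and 76 tags, against 401 and 283 in the CP. Syce1, another component, had 64 against 149. Spo11 had 75 against 189, Hormad1, a meiotic axis protein, had 35 against 101, and Rec8, the meiotic cohesin, had 20 against 30. By contrast, Dmc1, the meiotic recombinase, had a peak of 7 tags inside and Stag3, a meiotic cohesin subunit, a peak of 10 tags 1894 bp upstream, and Sycp3, Mei1 and Meiob had no listed peak. D1Pas1, a testis DEAD-box gene, had 98 tags and was the germline promoter with no listed CP peak. Tuba3a, a testis alpha-tubulin, had 76 against 202, and its near-identical copy Tuba3b had 24 against 85, so the division of reads between them is uncertain.

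Another 13 germline genes had peaks, none at the promoter by the rule used. Hspa1l, a testis heat shock protein gene, had 83 tags inside, against 344 in the CP, and Zp2, an egg coat protein gene, had 52 tags inside and no listed CP peak. Smc1b, a meiotic cohesin subunit, and Syce2 had peaks of 24 and 19 tags that lay 1506 and 4006 bp upstream. The remaining 11 genes, among them Tex15, had no listed peak.

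Imprinted genes came second among the lists. Of 63 measured, 47 had a peak (74.6%, against 56.3% of all genes). A promoter peak was present in 17 (27.0%, interval 17.6 to 39.0), again against 2.57% of all genes. With peaks of a fold of at least 20 only, 9 genes had one. The 17 genes had 15 distinct promoter peaks: Peg10 and Sgce, Peg3 and Usp29, and Snrpn and Snurf are neighbours under the same peak, and Gnas had 2. In the CP list 12 of the 63 had a promoter peak. Of the 15 V/SVZ peaks 9 overlapped a CP peak, with a median ratio of 2.92. Among the 6 that did not, 5 had a fold below that at which the CP list stops.

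Gnas, which encodes the stimulatory G protein alpha subunit among other products, had 255 tags over 2465 bp at chr2:174152544-174155008, a peak that also lay inside longer transcripts of the locus. Its second promoter peak, at chr2:174109597-174111032, had 96 tags, and neither had a listed CP partner. Zrsr1, a retrotransposed splicing factor gene, had 197 tags at chr11:22871828-22873613. The same peak lay inside Commd1, its host gene, and the peak had no listed CP partner. The peak shared by Peg10, a gene derived from a retrotransposon, and Sgce, epsilon-sarcoglycan, had 75 tags over 1923 bp and no listed CP partner either. Plagl1, a zinc finger factor, had 67 tags at chr10:12810150-12811102, against 269 in the CP. Peg3, a zinc finger gene, and Usp29 shared 51 against 262.

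On chromosome 7 several genes of the Snrpn region had a promoter peak, while Ube3a had a peak inside only and Magel2 no listed peak. Snrpn and Snurf, a small nuclear ribonucleoprotein gene and its upstream reading frame, shared a peak of 43 tags at chr7:67148892-67150211, against 107 in the CP. Ndn, which encodes necdin, had 16 against 71, Mkrn3, a ring finger gene, had 64 against 187, and Peg12 had 50 against 193. Elsewhere Nap1l5 had 64 against 178 and Mcts2 had 34 against 45. Nnat, which encodes neuronatin, had 56 tags and Mest 50, both with no listed CP partner. Htr2a, a serotonin receptor gene, had 67 tags at 963 bp upstream, against 114.

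Of the 30 imprinted genes with a peak but no promoter peak, the largest peak lay inside the transcript in 20, upstream or downstream in 9 and over the 3′ end in 1. These are not all separate peaks. Those of Commd1, Herc3 and Copg2 are the promoter peaks of Zrsr1, Nap1l5 and Mest. Blcap shares its largest peak with Nnat, and Nap1l4 with Phlda2. Impact had 279 tags with no listed CP partner. Grb10, an adaptor of insulin signalling, had 176 against 713 in the CP, a ratio above 4. This was above the upper quartile of all overlapping peaks, as was the median of 2.92 for imprinted promoter peaks over a CP peak. Kcnq1, a potassium channel gene, had 10 peaks of up to 136 tags, and Igf2r, the receptor that clears insulin-like growth factor 2, had 5 of up to 120. Igf2 itself had 64 tags 6490 bp upstream, against 160.

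**Figure D4:**
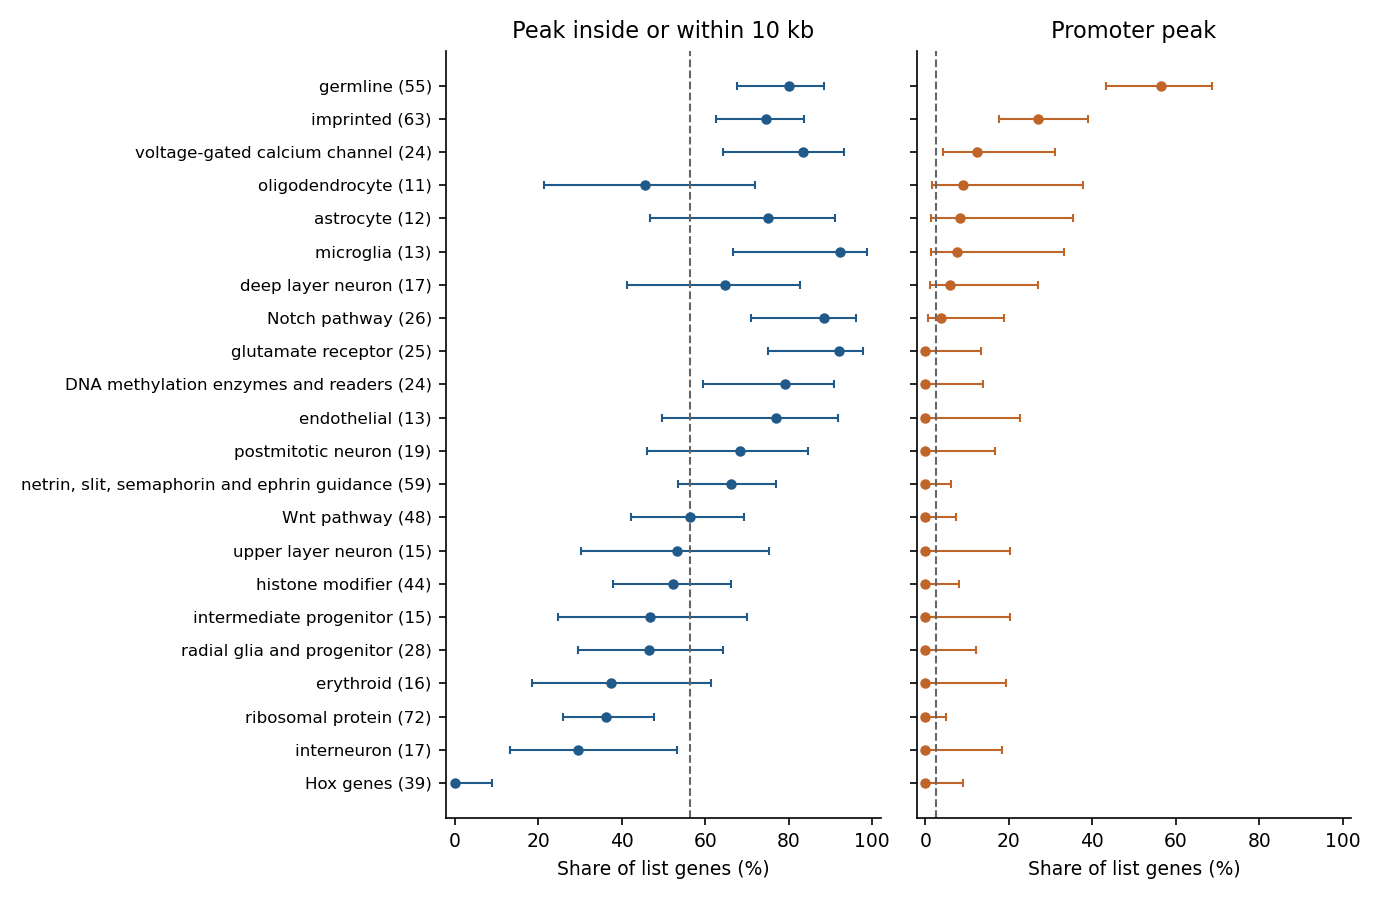
Percentage of the genes of each list with a V/SVZ peak inside or within 10 kb and with a V/SVZ promoter peak, with 95% Wilson intervals, beside the shares of all 20044 genes (56.3% and 2.57%). Germline genes stand at 56.4% and imprinted genes at 27.0% for promoter peaks, and Hox genes at 0 on both.

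Genes that define the cell types of the cortex are given beside the shares of all genes, 56.3% with a peak and 2.57% with a promoter peak. Among 28 radial glia and progenitor genes 13 had a peak (46.4%, interval 29.5 to 64.2) and none a promoter peak, which for 28 genes allows a share of up to 12.1%. Ptprz1, a receptor phosphatase, had 138 tags inside, against 144 in the CP, and Tnc, the matrix protein tenascin C, had 104 against 300. Notch2 and Notch1, receptors that keep progenitors undifferentiated, had 71 and 45 tags inside with no listed CP partner. Of 15 intermediate progenitor genes 7 had a peak, the largest 76 tags at 1345 bp downstream of Mfap4. The Notch ligand genes Dll1 and Dll3 had 33 and 28 tags inside, and Hes6 had 20 tags 8017 bp upstream.

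Of 15 upper layer genes 8 had a peak, and 3 of them held many: Cdh13 with 31, Cux2 with 23 and Cux1 with 10. Cux2, a homeobox factor of upper layer neurons, had a largest peak of 196 tags without a listed CP partner, while Cux1 had 176 tags against 485 in the CP. Of 17 deep layer genes 11 had a peak, led by Bcl11b, a factor of subcerebral projection neurons, with 74 tags inside against 44. Crym, a thyroid hormone-binding protein gene, carried the sole promoter peak of that list, 11 tags at 71 bp upstream. Of 19 genes of postmitotic neurons 13 had a peak, among them Tubb3, neuronal beta-tubulin, with 169 tags inside against 373, and Ncam1 with 102 against 181. Interneuron genes were marked least, in 5 of 17, with at most the 13 tags of Calb2. The intervals of these shares all include the 56.3% of all genes except that of interneuron genes (13.3 to 53.1).

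Among genes of other cell types, which a dissected layer may hold in small numbers or not at all, 3 had promoter peaks. Gfap, the intermediate filament of astrocytes, had 34 tags over its 5′ end at chr11:102757890-102758567, against 106 in the CP. Mbp, myelin basic protein of oligodendrocytes, had 20 against 32, and Spi1 (listed as Sfpi1), the transcription factor of macrophages and microglia, had 22 against 33. They were the only genes with a listed promoter peak among 12 astrocyte, 11 oligodendrocyte and 13 microglia genes, where 1 gene in a list this short cannot be read against the 2.57% of all genes. A peak of any kind was listed for 9 astrocyte, 5 oligodendrocyte and 12 microglia genes, against 56.3% of all genes. Mbp had a second, of 17 tags at 524 bp upstream, with no listed CP partner. No promoter peak was listed for the 13 endothelial genes, of which 10 had a peak, with Cdh5, vascular cadherin, at 86 tags inside, nor for the 16 erythroid genes, of which 6 had a peak. Such DNA marks carry no information on how many cells of each type the dissection held.

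The shares with a peak in the signalling and receptor lists ran from 56.3%, as in all genes, to 92.0%. Of 26 Notch pathway genes 23 had a peak (88.5%, interval 71.0 to 96.0), the largest being 166 tags inside Rbpj, the DNA-binding partner of the Notch intracellular domain. Notch3 had the one promoter peak, 8 tags at 595 bp upstream. Of 48 Wnt pathway genes 27 had a peak (56.3%, interval 42.3 to 69.3) and none a promoter peak. The Dishevelled genes Dvl1 and Dvl3 had 162 and 159 tags inside, and Wnt4 had 130 over its 3′ end. Of 59 guidance genes 39 had a peak (66.1%, interval 53.4 to 76.9), whose largest lay inside in 37, led by Epha8 (164 tags), Epha2 (161), Unc5a (148) and Robo1 (141). Of 25 glutamate receptor genes 23 had a peak (92.0%, interval 75.03 to 97.8) and none a promoter peak, and the largest was 235 tags at 8445 bp upstream of Grik5.

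Voltage-gated calcium channel genes had a peak in 20 of 24 (83.3%, against 56.3% of all genes). A promoter peak was present in 3 (12.5%, interval 4.34 to 31.0, against 2.57% of all genes). All 3 belong to the gamma subunit family. Cacng8 and Cacng7, neighbours on chromosome 7, had 44 and 35 tags over their 5′ ends, against 106 and 81 in the CP. Cacng1, the skeletal muscle subunit, had 31 against 58. The pore subunit Cacna1i had the largest peak of the list, 139 tags inside.

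No promoter peak was listed for the ribosomal protein, DNA methylation or histone modifier genes, where the 2.57% of all genes lies within the interval of each list (up to 5.07%, 13.8% and 8.03%). Of 72 ribosomal protein genes 26 had a peak (36.1%, interval 26.0 to 47.7, against 56.3% of all genes), and the largest lay upstream or downstream in 24 of the 26, such as 70 tags at 8939 bp upstream of Rpl36. Of 24 genes for enzymes and readers of DNA methylation 19 had a peak (79.2%, interval 59.5 to 90.8), led by the methyl-CpG binding genes Mbd1 (121 tags inside) and Mbd3 (110 inside). Of 44 histone modifier genes 23 had a peak (52.3%, interval 37.9 to 66.3), with 221 tags inside Dot1l, the histone H3 lysine methyltransferase.

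None of the 39 Hox genes, which pattern the body axis and are silenced in the forebrain by Polycomb proteins, had a listed V/SVZ peak within 10 kb (0 of 39, interval up to 8.97%), nor did any in the CP list. Of all genes 56.3% had a peak and 2.57% a promoter peak. Other families, grouped by symbol after their values were seen, varied. Olfactory receptor genes (Olfr) had a peak in 175 of 1102 (15.9%) and vomeronasal receptors Vmn1r in 26 of 230 (11.3%). By contrast, 60 of 67 protocadherin genes (Pcdh) had a peak (89.6%), shared among neighbours in their clusters since they held 66 distinct peaks, and none had a promoter peak. Keratin genes (Krt), expressed in epithelia, had promoter peaks in 13 of 111 (11.7%, interval 6.97 to 19.01). The share was higher in the Tex genes (5 of 31, 16.1%) and the Tdrd genes (3 of 7, 42.9%), some of which are in the germline list.

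Promoter peaks were most frequent at promoters of intermediate CpG content. CpGs were counted in the 300 bases around the start, 250 before and 50 after it, for 13409 genes with a single RefSeq promoter. A promoter peak was present at 0.408% of promoters with 0 or 1 CpG (interval 0.198 to 0.839), at 7.74% of those with 6 or 7 (interval 5.98 to 9.96), and at 1.32% of those with 25 or more (interval 0.988 to 1.76). Any peak in or near the gene followed another course, from 21.1% of genes in the lowest class to 66.5% in the highest. Genes with a promoter peak had a median of 11 CpGs (n = 332), those with a peak elsewhere only had 19 (n = 6858) and those with no listed peak 7 (n = 6219).

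Within the germline and imprinted lists the CpG content of promoters with and without a peak overlapped. Germline promoters with a peak had a median of 16 CpGs (quartiles 13.8 and 20, n = 24), and those without had 15 (quartiles 9.5 and 21, n = 15). Imprinted promoters with a peak had a median of 14 (quartiles 10.8 and 17, n = 12) and those without 20 (quartiles 9.25 and 24.5, n = 22). Radial glia promoters, with no promoter peak, had a median of 26 (n = 17), ribosomal protein promoters 22.5 (n = 44) and Hox promoters 14.5 (n = 20).

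**Figure D5:**
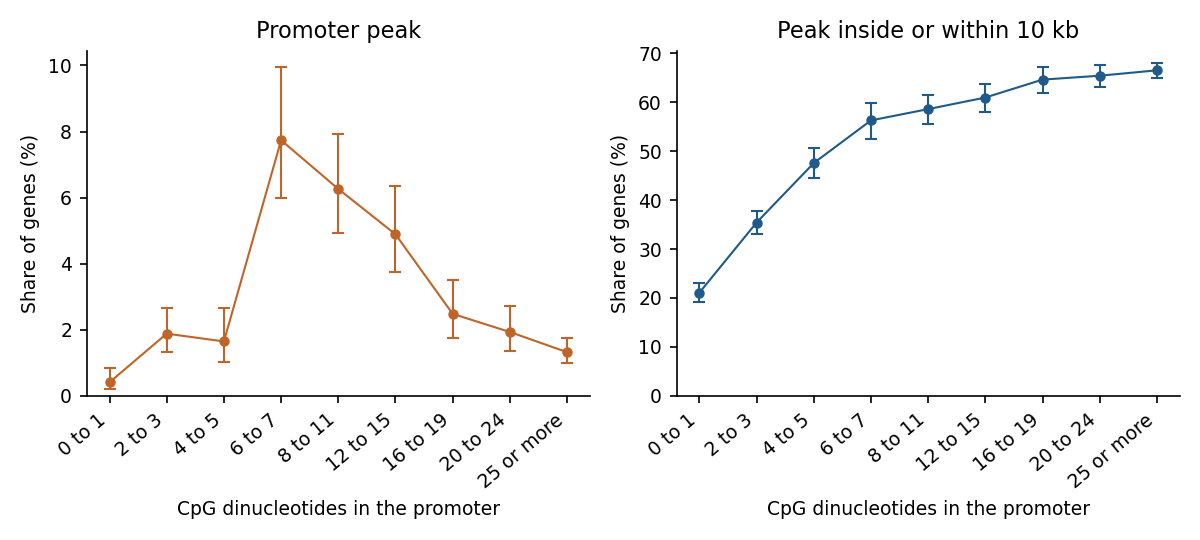
Percentage of 13409 genes with a V/SVZ promoter peak, and with any V/SVZ peak, by the number of CpGs in the 300 bases around the start, with 95% Wilson intervals. Promoter peaks are most frequent at 6 or 7 CpGs (7.74%) and fall to 1.32% at 25 or more, while the share with any peak rises from 21.1% to 66.5%.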

How the data were processed

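Genomic DNA of dissected V/SVZ and CP was enriched for methylated fragments with a commercial kit and made into Illumina libraries, per the labels' protocols. Per the submitters' processing notes, CASAVA 1.8 and Bowtie were used with the build mm9. The column names are those of MACS, a peak caller, per the file headers. For Bowtie and MACS the sources used here do not give versions or settings. Tags are a count of aligned reads, not scaled, and the fold enrichment is a ratio over the control, both as deposited by the authors. The deposited significance score was not used. The deposited false discovery rate in percent was 0 in every line. The authors called peaks per library and listed every RefSeq transcript within 10 kb.

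Peaks on chromosomes 1 to 19 were kept once each and given 1 class, in the order promoter, inside, 3′ end, upstream, downstream, none. Overlap with CP peaks needed 1 bp. Gene IDs were matched to RefSeq of GRCm38.p6 for names and chromosomes (11469 of 11515, 99.6%). Promoters were RefSeq's, of GRCm38.p6. Gene lists, 22 in all, and members were chosen with earlier results of these data known. Named genes were those of the 12 peaks with the most tags and the 12 longest, the 15 genes with the most peaks, the leading genes of the 5 densest windows and the longest runs, the 15 promoter peaks with the most tags, and in each list up to 4 by tags and up to 12 with promoter peaks; further list members are named for their roles. Depth of the libraries is not given, and tags range from 6 upward. Intervals are Wilson at 95% and treat peaks or genes as independent. The counting code was tested on simulated peaks. Python 3.11.15, pandas 2.3.3, numpy 2.4.6 and matplotlib 3.10.9 were used. Alternatives were other promoter definitions, minimum tags or fold of 20, the X chromosome and a stricter overlap. The direct comparisons of the tissues were not used here.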

Additional observations from a re-analysis of the deposited data

How the results depend on the processing

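No paired analysis was possible because there was 1 library per tissue, and none could be left out. Under 8 alternatives 34 values were recomputed, and 17 stayed within their counting interval or within 1.5 times the main count. Requiring at least 20 tags gave a promoter share of 1.84%, an inside-gene share of 51.8%, a CP overlap of 83.1%, a median of 32 tags, 6333 genes with a peak and at most 15 peaks in a gene. Requiring a fold of at least 20 gave an inside-gene share of 39.9%, a CP overlap of 70.7%, at most 31 peaks in a gene and 9 imprinted genes with a promoter peak in place of 17. Adding the X chromosome gave a promoter share of 1.28%, an inside-gene share of 43.9% and a CP overlap of 64.5%. Counting only peaks over a 5′ end or whole transcript gave a promoter share of 0.681%, and reaching 5 kb upstream gave 4.68%. Requiring 50% of the peak to be covered gave a CP overlap of 62.9%, and keeping only peaks at or above the fold at which the CP list stops, an alternative chosen after seeing the data, gave 67.5%. The cause was not tested, beyond the smaller sets of peaks that the minimum tags and folds leave. Germline genes with a promoter peak numbered 26 to 36 under all alternatives run. Weak peaks limit what can be read: 40.6% have under 10 tags, and peaks of fold below 11.48 are not listed.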
